A study of Caenorhabditis elegans with 2 samples.

Results

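The genes of the cytosolic ribosomal proteins were taken as every protein-coding gene of the WBcel235 annotation whose name starts with rpl- (large subunit), rps- (small subunit) or rla- (acidic proteins of the large subunit's stalk). There were 81 of them among 19973 protein-coding genes, namely 47 rpl, 31 rps and 3 rla genes. The data are ChIP-seq of the FoxA transcription factor PHA-4 in Caenorhabditis elegans. Chromatin came from whole L4 larvae of both sexes, in 1 group of 2 biological replicates with no other condition. All animals were of strain OP37, genotype unc-119(ed3) III; wgIs37, in which pha-4 is tagged with eGFP in an inserted transgene. The labels name pha-4 as the target of the antibody and eGFP-pha-4 as the protein assayed. Whole animals mix all tissues, so no region below can be given to a cell type.

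A cytosolic ribosome is built from rRNA and one set of large and small subunit proteins in nearly equal amounts, so the genes for these proteins are usually expressed together, in every cell that grows. The mRNAs of most of them are among the most abundant of the cell. PHA-4 is best known as the factor that specifies the pharynx, and it also acts in the intestine and gonad and in the response to diet. Many C. elegans mRNAs are trans-spliced, which removes the start of the primary transcript, so an annotated 5′ end can lie downstream of the place where transcription starts.

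For each gene the strongest region was sought with its summit in the gene's window, which spans 1000 bp before and 200 bp after each 5′ end of its annotated transcripts. Signal is the value the authors deposited for each region, with a scale and unit not given in the sources used here. It was treated as linear, which every ratio and fold below assumes. It comes from the list called on both replicates pooled unless a replicate is named. The IDR list is the authors' short list (IDR stands for irreproducible discovery rate), and its 1484 regions were the strongest 1484 of the pooled list's 30000 by this signal, down to 25.9. The replicate lists held 21039 and 20807 regions. No read counts are in the files, so the depth of the libraries is unknown. Intervals on shares of genes or regions are exact 95% binomial intervals and cover counting error only. No result below is tested, because the series has no second condition and genes of 1 library are not replicates.

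Short DNA elements recurred around the summits of these genes and are shown first, since several results below turn on them. A script looked for the 11-base word, on either strand, that was commonest among the members' 43 distinct IDR regions within 100 bp of the summit. The first was ACGGTAACACT, exact in 9 of the 43, and the second, sought in the 31 regions without the first, was AGTATTCAACG, exact in 7. Below are the stretches around the first word (element 1) in the members' regions from which sequence is shown, read in the direction of the word, with the 11 bases in capitals. They come from the RefSeq WBcel235 genome, and none overlaps an annotated exon.
rps-13 (chrIII:6375147-6375187, plus strand): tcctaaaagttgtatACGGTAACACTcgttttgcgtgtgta
rpl-22 (chrII:5055373-5055413, minus strand): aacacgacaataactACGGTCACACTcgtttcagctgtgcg
rpl-11.2 (chrX:2242946-2242986, plus strand): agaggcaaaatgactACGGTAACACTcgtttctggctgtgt
rps-23 (chrIV:12391286-12391326, minus strand): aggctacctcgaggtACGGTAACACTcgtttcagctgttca
rpl-6 (chrIII:7208063-7208103, minus strand): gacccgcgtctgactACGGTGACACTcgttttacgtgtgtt
rpl-38 (chrV:15511807-15511847, minus strand): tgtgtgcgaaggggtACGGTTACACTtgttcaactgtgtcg
rpl-21 (chrIII:8130504-8130544, plus strand): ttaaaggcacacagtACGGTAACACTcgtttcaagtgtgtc
rpl-34 (chrIV:12268554-12268594, minus strand): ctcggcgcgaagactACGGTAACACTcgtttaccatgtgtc
The likeness ran beyond the 11 bases that were searched for. Across the 12 distinct matches, a T stood before the word in 12, and the 5 bases after it were C in 10, G in 12, T in 12, T in 12 and T in 10. The base that varied within the word was its sixth, which was A in 9 of the 12.

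Element 2 is shown in the same way, from the regions that held the second word with at most 1 mismatch.
rpl-6 (chrIII:7208103-7208143, minus strand): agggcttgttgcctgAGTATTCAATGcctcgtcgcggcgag
rps-22 (chrIII:1950420-1950460, plus strand): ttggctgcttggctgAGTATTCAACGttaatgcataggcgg
rpl-32 (chrII:9057427-9057467, plus strand): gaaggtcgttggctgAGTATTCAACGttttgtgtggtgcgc
rps-0 (chrIII:4754306-4754346, minus strand): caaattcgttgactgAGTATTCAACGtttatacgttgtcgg
rps-24 (chrIV:385618-385658, plus strand): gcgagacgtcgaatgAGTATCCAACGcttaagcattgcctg
rps-3 (chrIII:6206468-6206508, plus strand): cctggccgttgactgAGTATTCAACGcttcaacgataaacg
rpl-39 and rps-30 (chrV:7776333-7776373, plus strand): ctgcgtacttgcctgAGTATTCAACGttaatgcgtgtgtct
Across its 10 distinct matches, the 3 bases before the word were C in 9, T in 10 and G in 10, and a run of T, T and G a little farther out stood in 10, 9 and 10. In rpl-6 both elements lie side by side, at 364 and 324 bp upstream of the gene's 5′ end.

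**Figure D1:**
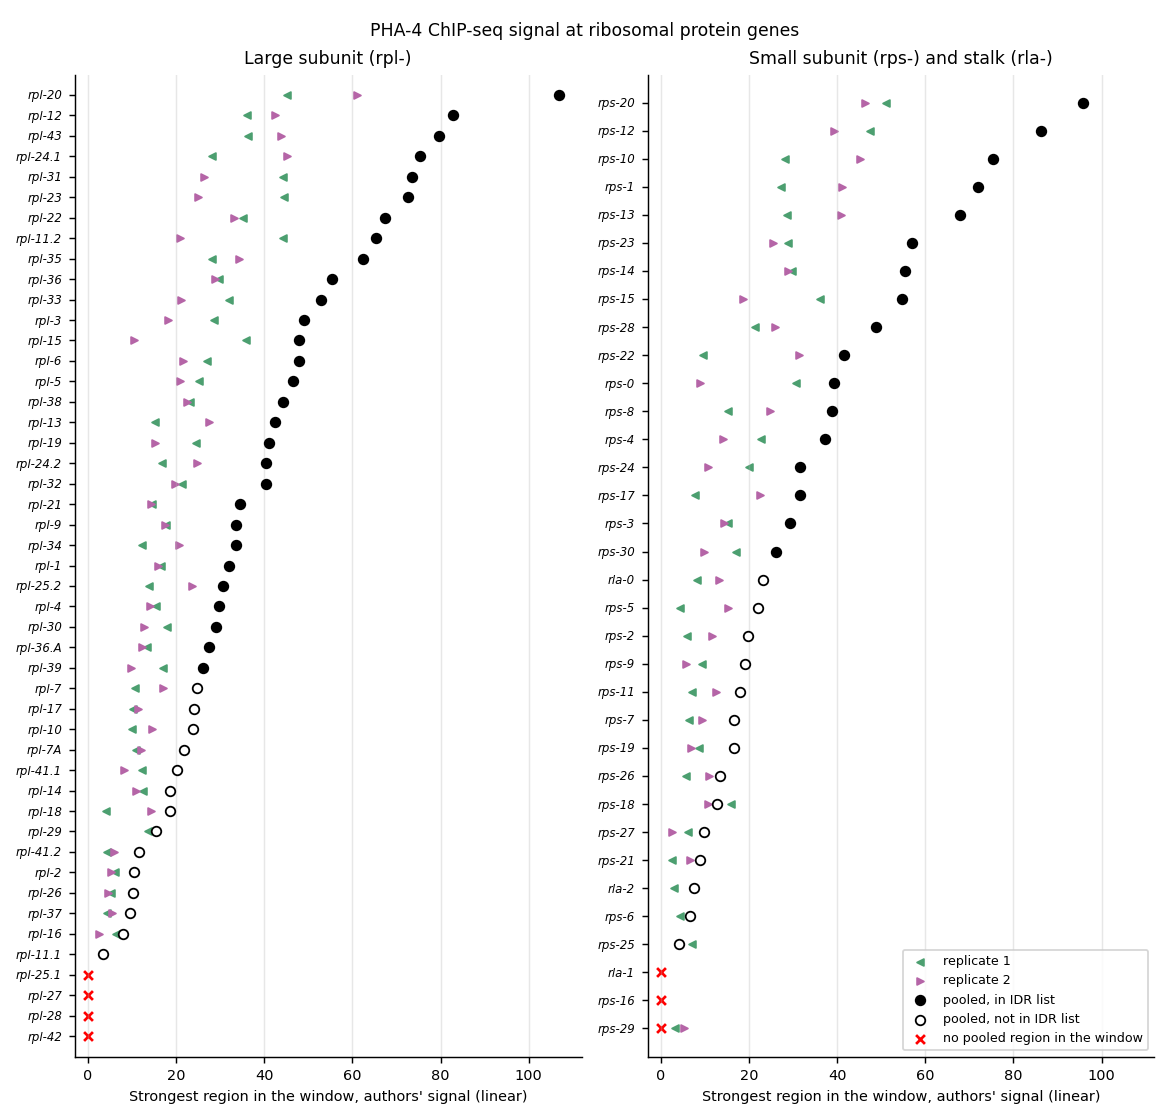
Strongest PHA-4 region of each ribosomal protein gene in the pooled list (circles, filled where the region is in the IDR list) and in each replicate's list (triangles), in authors' signal units on a linear axis, with large subunit genes on the left and small subunit and stalk genes on the right. Filled circles cover 29 of 47 rpl and 17 of 31 rps genes, and crosses mark the 7 genes with no pooled region in the window.

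An IDR region lay in the window of 46 of the 81 ribosomal protein genes (56.8%, interval 45.3 to 67.8%), where the same rule called 6.24% of all protein-coding genes. Any pooled region, however weak, lay in the windows of 74, against 45.0% of all protein-coding genes. In replicate 1, 74 members had a region, where 37.0% of all genes did, and in replicate 2, 70 members had one, where 37.5% of all genes did. The median signal of the 74 pooled regions was 31.8, against 9.48 over the 8994 protein-coding genes with one. Of these 8994 genes ranked by signal, 15 members stood in the top 100, 33 in the top 500 and 43 in the top 1000.

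The intervals of large and small subunit genes overlapped for most of their length. An IDR region lay at 29 of 47 rpl genes (61.7%, interval 46.4 to 75.5%) and at 17 of 31 rps genes (54.8%, interval 36.0 to 72.7%). Their median pooled signals were 33.5 for rpl and 31.5 for rps, and among genes in the IDR list 46.5 for rpl and 48.8 for rps. None of the 3 rla genes had an IDR region, a share that 3 genes leave between 0 and 70.8%.

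The strongest of all was at rpl-20, whose product is a large subunit protein, with 106.9 in the pooled list, 45.2 in replicate 1 and 61.2 in replicate 2. rpl-12, which encodes a protein at the base of the stalk, had 82.9 (36.1 and 42.4 in replicates 1 and 2). At rpl-43 the signal was 79.6 (36.3 and 43.9). Replicate 2 was the higher one at all of these, with log2 ratios of replicate 1 to replicate 2 of -0.44, -0.23 and -0.27.

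Next among the large subunit genes came rpl-24.1 with 75.4 (28.1 and 45.1), rpl-31, for a protein near the mouth of the exit tunnel, with 73.5 (44.2 and 26.4), and rpl-23 with 72.6 (44.4 and 24.997). rpl-22 had 67.4 (35.2 and 33.1) and rpl-11.2, for a protein that binds 5S rRNA, 65.4 (44.3 and 20.9). In these genes neither replicate was the higher one throughout.

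Among small subunit genes rps-20 led with 95.8 (51.1 and 46.3), followed by rps-12 with 86.2 (47.4 and 39.4) and rps-10 with 75.4 (28.1 and 45.1). The protein of rps-10 is a site of ubiquitination on collided ribosomes in human cells, and that of rps-12 acts in cell competition in Drosophila. rps-1 had 72.1 (27.3 and 41.1), rps-13 67.9 (28.6 and 40.9), and rps-23, whose protein lies at the decoding centre, 57.0 (28.8 and 25.4). rps-14 and rps-15 followed with 55.3 (29.8 and 28.8) and 54.7 (36.2 and 18.6). The ranges of the leading 8 genes of the large subunit (65.4 to 106.9) and of the small subunit (54.7 to 95.8) overlapped for most of their length.

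The stalk genes stood low. rla-0, for the scaffold protein P0 that anchors the stalk, had 23.1 (8.14 and 13.1), just under the weakest IDR region. rla-2 had 7.55, seen in replicate 1 (3.05) and not in replicate 2. rla-1 had no region in any of the lists, and the nearest pooled summit stood 1315 bp upstream of its 5′ end.

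Other members with no pooled region in the window were rpl-25.1, rpl-27, rpl-28, rpl-42, rps-16 and rps-29. rps-29 differed from the others in having a weak region in each replicate (3.28 and 5.34), with a pooled summit 213 bp downstream of its 5′ end, just past the window. The nearest pooled summit of rps-16 was strong (29.5) but stood 1797 bp upstream, and that of rpl-28 was 5568 bp upstream. So 6 of the 81 members had no region in the window in any list.

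Around the weakest IDR signal the members formed a continuous series. Just above it were rpl-39 and rps-30, which share a region of 26.1, then rpl-36.A with 27.5, rpl-30 with 29.2, rps-3 with 29.3 and rpl-4 with 29.7. Just below were rpl-7 with 24.8, rpl-17 with 24.2, rpl-10 with 23.9, rla-0 with 23.1 and rps-5 with 22.1. Replicate values of these neighbours overlapped as well. rpl-30 had 18.0 and 12.7 inside the list, against 10.7 and 17.0 at rpl-7 outside it.

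Genes with closely similar names could differ widely. The paralogues rpl-11.2 and rpl-11.1 encode versions of the same 5S rRNA-binding protein, and had 65.4 and 3.52, the weak region of rpl-11.1 having no counterpart in its window in either replicate list. rpl-25.2 had 30.7 (13.8 and 23.7) while rpl-25.1 had none in any list. rpl-24.1 and rpl-24.2 had 75.4 and 40.5, and rpl-41.1 and rpl-41.2 had 20.2 and 11.7. Names alone do not make paralogues, since rpl-36 (55.3) and rpl-36.A (27.5) encode different proteins, as do rpl-7 (24.8) and rpl-7A (21.9).

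The replicates were closer to each other at these genes than at protein-coding genes in general. The log2 ratio of replicate 1 to replicate 2 had a median of 0.05 and an SD of 0.78 over the 70 members with a region in both, against 0.12 and 0.91 over all 5375 such protein-coding genes. More than 2-fold apart were 10 of the 70 (14.3%), against 27.1% of all. Among genes in the IDR list 10.9% of 46 members were that far apart, against 18.7% of all 1235 with both values. By subunit, the SD was 0.66 over 41 rpl and 0.93 over 28 rps genes. In the IDR list it was 0.61 for rpl and 0.90 for rps genes, against 0.78 for all genes. More than 2-fold apart in that list were 6.90% of rpl and 17.6% of rps genes. Across the 70 members, which share both libraries, log2 signals correlated with a Pearson's r of 0.72 and a Spearman's rho of 0.69, and the like values over all genes were 0.57 and 0.56. Within the IDR list r and rho were 0.41 and 0.43 over 46 members, against 0.12 and 0.11 over all genes. Members reach a higher signal, and how far that sets these figures was not tested.

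At all 46 members of the IDR list both replicates had their own strongest summit within 150 bp of the pooled one. The like count over other genes in the list is not given. When each replicate's strongest 1484 regions were used in place of the IDR list, 42 members were called from replicate 1, where 5.91% of all genes were, and 44 from replicate 2, where 6.04% of all genes were. 35 members were called by both, and all of these are in the IDR list. The share of all genes called by both is not given, and it cannot exceed 5.91%. Among members of the IDR list the replicates were farthest apart at rps-0, for a small subunit protein, with 30.8 in replicate 1 and 8.90 in replicate 2 (log2 ratio 1.79), and at rpl-15 with 35.7 and 10.4 (log2 ratio 1.79). rps-22 and rps-17 went the other way, with 9.59 and 31.3 (log2 ratio -1.71) and with 7.88 and 22.6 (log2 ratio -1.52). rpl-11.2 was the fifth, with 44.3 and 20.9 (log2 ratio 1.09). Outside the list rpl-18, with 4.01 and 14.4 (log2 ratio -1.84), and rps-5, with 4.39 and 15.3 (log2 ratio -1.80), were wider apart still.

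**Figure D2:**
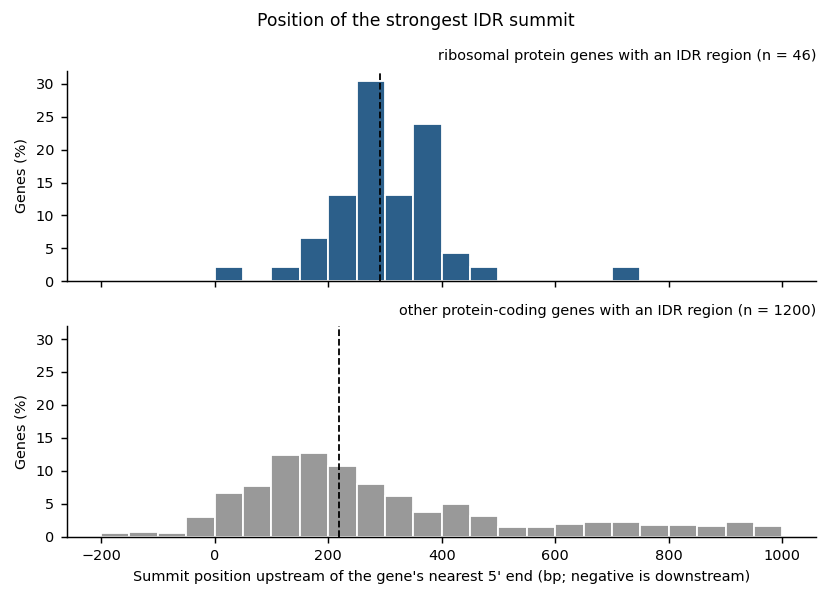
Position of the strongest IDR summit upstream of the gene's nearest annotated 5′ end, in 50-bp bins as a percentage of genes, for ribosomal protein genes (top) and other protein-coding genes (bottom); dashed lines mark the medians. Of the ribosomal protein genes, 37 of 46 lie between 200 and 400 bp, against 28.4% of the other genes.

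The summits held a narrow range of positions. In the 46 members of the IDR list the strongest summit stood a median of 291.5 bp upstream of the gene's nearest 5′ end, with quartiles of 253.5 and 366.5 bp. In the 1200 other protein-coding genes of the list the median was 218.5 bp and the quartiles 125 and 410.5 bp. Between 200 and 400 bp upstream lay 37 of the 46 (80.4%), against 28.4% of the others. Downstream of the 5′ end lay 0 of the 46, against 5.75% of the others.

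The position was much the same in lists that hold weaker regions. Over the 74 members with a pooled region the median was 284.5 bp and 73.0% lay between 200 and 400 bp, against 231.5 bp and 22.1% of 8920 other genes. The replicate lists gave the members medians of 294 bp and 301 bp. Both subunits shared it, with 305 bp for the 29 rpl genes (quartiles 256 and 370 bp) and 262 bp for the 17 rps genes (quartiles 242 and 291 bp) in the IDR list.

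Members outside the range were few. rpl-43 had its summit 736 bp upstream, rpl-35 at 451 bp and rpl-34 at 423 bp, and the nearest to the gene were those of rpl-12 at 41 bp, rps-22 at 117 bp and rpl-24.2 at 154 bp. The region of rpl-43 was only 185 bp from the 5′ end of Y48B6A.1 on the other strand. Of the 46 summits, 44 were intergenic and 2 lay in introns, that of rpl-19 in an intron of a longer rpl-19 transcript and that of rpl-24.2 in C03D6.1.

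Most of these regions cannot be assigned to the ribosomal protein gene alone. In 33 of the 46 members (71.7%, interval 56.5 to 84.0%) the summit also lay in the window of another protein-coding gene, against 49.1% (interval 46.2 to 52.0%) of the 1200 other genes. The split was 20 of 29 for rpl and 13 of 17 for rps. The nearest such neighbour was on the opposite strand in 31 of the 33, so that the region lay between divergent genes, and on the same strand for rpl-23 and rps-28. The member's own 5′ end was the nearest one in 15 of the 33, and that of another gene was nearer in 18.

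Some divergent pairs were made of members on both sides. rpl-24.1 and rps-10 (75.4), rpl-36 and rps-14 (55.3) and rpl-39 and rps-30 (26.1) each pair a large with a small subunit gene over 1 region, which is why 46 genes had 43 distinct regions. The summit stood 227 bp from rpl-24.1 and 383 bp from rps-10, 385 bp from rpl-36 and 278 bp from rps-14, and 292 bp from rpl-39 and 207 bp from rps-30. rpl-39 encodes a small protein that lines the exit tunnel, and rps-30 a small subunit protein made as a fusion with a ubiquitin-like one.

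Other neighbours had varied roles. The region of rpl-12 was shared with lin-54, which encodes the DNA-binding subunit of the DREAM complex, that of rps-20 with ekl-4, that of rps-12 with ska-3, and that of rps-1 with ifet-1, a regulator of translation. rpl-22 shared its region with ify-1, the securin of the worm, rpl-9 with lpd-7, a ribosome biogenesis factor, and rpl-30 with pab-1, the poly(A)-binding protein, whose 5′ end was only 5 bp from the summit. The region of rpl-31 stood 10 bp upstream of sac-2.

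Shared regions had a higher median signal than own ones. The median signal was 52.9 over the 33 shared (26.1 to 106.9) and 41.0 over the 13 own (31.5 to 65.4), a log2 ratio of 0.37. For rpl genes the medians were 47.2 shared and 44.1 own, and for rps genes 55.3 shared and 34.5 own, with only 4 rps genes in own windows. Among the 1200 other genes the medians were 33.9 shared and 33.8 own. These genes include neighbours that share a member's region, such as that of rpl-20 (106.9). Medians are over genes, and 6 of the 33 shared members have a region in common with another member, which enters once for each. The ranges overlapped throughout, and the members with own windows still included rpl-11.2 (65.4), rpl-35 (62.4), rpl-3 (49.0) and rpl-6 (47.9). Summit distance was alike, 295 bp for shared and 270 bp for own.

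**Figure D3:**
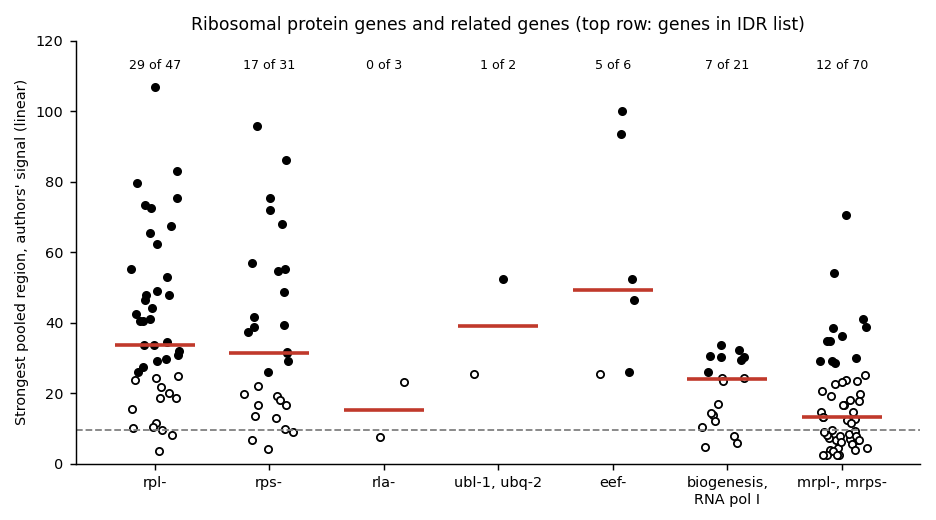
Strongest pooled signal of each gene (authors' signal, linear axis) in ribosomal protein genes and related lists; filled points are in the IDR list, red bars are medians over genes with a region, the dashed line is the median of all protein-coding genes with one (9.48), and the top row counts genes in the IDR list. The rpl and rps genes and the elongation factors spread up to about 100, while most mitochondrial ribosomal protein genes lie under 40.

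Genes that work beside these proteins are set next to them for reference. ubl-1, which encodes a ubiquitin-like protein fused to a small subunit protein, had an IDR region in its own window (52.5, with 28.5 and 22.03 in the replicates). ubq-2, ubiquitin fused to a large subunit protein, had 25.5 (15.7 and 12.4) and was not in the list. rack-1, a scaffold bound to the small subunit, had 17.8, with 15.6 in replicate 1 and 2.78 in replicate 2. Of the 6 eef genes for elongation factors 5 had an IDR region, the exception being eef-1B.1 (25.4), and their median was 49.4.

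Ribosome assembly and mitochondrial ribosomes gave lower values. In a list of 21 genes for ribosome biogenesis and RNA polymerase I, 7 had an IDR region, among them fib-1 (29.5), the fibrillarin methylating rRNA, nol-56 (30.2), nog-1 (30.5) and ncl-1 (32.2), and the median of the 18 with a pooled region was 23.9. Of 70 mrpl and mrps genes, whose proteins build the mitochondrial ribosome, 12 had an IDR region (17.1%) and the median of 55 was 13.3. Both lists thus had a median below the 31.8 of the cytosolic ribosomal protein genes and above the 9.48 of all genes.

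Elements 1 and 2, shown above, were frequent at these regions and rare at others. Their words were chosen from the members' own IDR regions, so the members' counts describe that choice. With at most 1 mismatch, element 1 stood within 100 bp of the summit in 12 of the 43 regions (27.9%) and element 2 in 10 (23.3%). Of the 903 other IDR regions in promoter windows, 14 held element 1 (1.55%) and 4 held element 2 (0.443%). In 86 windows centred 500 bp away from the members' summits there were 0 of each.

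One or both elements stood in 21 of the 43 regions, against 18 of the 903 others. The same search over the remaining 22 regions gave a word that stood in only 3 of them and in 4 of the 903 others. Element 1 lay at a median of 16 bp from the summit, and within 50 bp in all 13 members of the IDR list that had it in the window. Element 2 lay at a median of 24 bp, within 50 bp in 9 of 14 matches and within 100 bp in 11. Both words were sought within 100 bp of these summits, so nearness to them follows in part from that choice. In members outside the list, element 1 lay at a median of 51 bp, within 50 bp in 2 of the 4 with a pooled summit. Element 1 read against the gene's strand in 10 of its 13 members, and element 2 along it in 9 of 14.

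Counts over the gene's whole window include the matches near the summits, from which the words were chosen. Of the members counted next, 13 with element 1 and 14 with element 2 are in the IDR list. At most 1 mismatch to element 1 occurred in the windows of 18 of the 81 members, where 1.98% of all protein-coding genes had one, and element 2 in 16, where 2.39% of all genes had one. Both subunits took part, with element 1 at 11 of 47 rpl and 7 of 31 rps genes and element 2 at 9 of 47 rpl and 7 of 31 rps genes. Only rpl-6 and rpl-21 had both in the window. None of the 3 rla genes had either.

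Among the 35 members without an IDR region, whose sequences were not used to choose the words, 5 had element 1 and 2 had element 2. That is 14.3% against 1.98% of all protein-coding genes for element 1, and 5.71% against 2.39% for element 2. The exact words stood in 1 of the 35 each (2.86%), against 0.200% and 0.120% of all genes. Counts this small were not tested. The match was 21 bp from the pooled summit at rps-7 (signal 16.6), 12 bp at rpl-29 (15.5) and 81 bp at rps-18 (12.9) for element 1, and 19 bp at rpl-7A (21.9) for element 2. At rpl-18 the match stood 327 bp away, and rps-29 and rps-16, with no pooled region, had theirs 487 and 950 bp upstream of the 5′ end.

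The order of the median signals depended on which members were counted. Over all members with a pooled region it was 41.0 for the 17 with element 1, 34.5 for the 15 with element 2 and 24.5 for the 44 with neither, but the words were chosen from the stronger members. Among members in the IDR list the median signal was 47.9 for the 13 with element 1 (31.5 to 75.4), 37.0 for the 14 with element 2 (26.1 to 95.8) and 54.7 for the 21 with neither (27.5 to 106.9), rpl-6 and rpl-21 being counted under both elements. The 21 with neither included rpl-20, rps-12, rpl-12 and rpl-43. Their median distance upstream of the 5′ end, 303 bp, was close to the 263 bp and 291.5 bp of the members with element 1 and element 2.

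Element 1 was found at other genes too. The exact word stood in the windows of 23 other protein-coding genes at places not shared with a member, and 11 of these (47.8%) had an IDR region, against 6.24% of all protein-coding genes. With at most 1 mismatch it was 38 of 369 such genes (10.3%). The 11 included the divergent pair pas-4 and rpb-3, for a proteasome and an RNA polymerase II subunit, with 46.0 and the word 2 bp from the summit, ntl-2, of the CCR4-NOT complex, with 42.4 at 18 bp, and rde-4, of the RNA interference pathway, with 36.0 at 4 bp. Like pas-4 and rpb-3, the pairs rde-4 and cox-14, npp-3 and top-2, and pdtf-1 and T26A8.4 each share a region. The 11 genes thus rest on fewer regions, and outside the IDR list rpn-5 and scc-1 had the same signal (24.1) too. In pdtf-1 and T26A8.4 the word was 743 bp from the summit. These names were chosen after their values were seen. Exact matches to element 2 stood in 9 other genes, 1 of which had an IDR region. With at most 1 mismatch it was 26 of 451 (5.76%), no higher than the 6.24% of all genes. Neither element was in a window of ubl-1, ubq-2, rack-1, the 6 eef genes or the 21 biogenesis genes. Of the 70 mrpl and mrps genes, 1 (mrpl-36) had element 1 and 0 had element 2. Shares of 1.98% and 2.39% over all genes leave few matches to be found in lists this short.

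Shorter words were sought with a set rule in the same 43 regions, so they are no separate check on element 1. Among all 6-base words on either strand within 50 bp of the summit, leaving out those sharing 5 bases in a row with the forkhead consensus, the 5 with the largest surplus over other IDR promoter regions were picked out. ACCGTA was in 19 of the 43 regions (44.2%), against 7.42% of the 903 others. CACTCG was in 16 (37.2%, against 4.43%), ACACTC in 17 (39.5%, against 10.96%) and ACGGTA in 14 (32.6%, against 4.76%). These 4 words overlap parts of element 1 and its flanks, yet 8 of the 19 regions with ACCGTA and 6 of the 16 with CACTCG had no match to element 1.

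GAGACC, which is no part of element 1, was in 15 regions (34.9%, against 8.53%), and 10 of these lacked element 1. Promoters of all protein-coding genes, taken from 250 bp before to 50 bp after the outermost 5′ end, held ACCGTA in 8.14% and GAGACC in 8.01%. They are longer windows than those around the summits. The chosen words show which were most in surplus here, and the share of other regions is the scale for them.

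Strong regions without either element are shown for contrast, within 50 bp of the summit, on the gene's strand, with the 5 words above in capitals. None overlaps an annotated exon. The capitals mark those words only, and unmarked stretches are shared too. Left of the summit, rpl-20 and rps-12 have a longer run of bases in common. Another run is nearly identical in all the regions shown. How often these runs occur in other regions was not tested. Elements were counted with at most 1 mismatch, and rpl-23, not shown, holds element 2 with 2 mismatches.
rpl-20 (chrIV:4750032-4750132, minus strand): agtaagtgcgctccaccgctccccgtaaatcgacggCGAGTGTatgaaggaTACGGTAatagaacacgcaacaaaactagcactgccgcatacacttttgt
rpl-43 (chrII:14154508-14154608, plus strand): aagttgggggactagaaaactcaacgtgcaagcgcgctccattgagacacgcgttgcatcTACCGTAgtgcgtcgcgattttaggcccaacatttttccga
rps-12 (chrIII:5679084-5679184, plus strand): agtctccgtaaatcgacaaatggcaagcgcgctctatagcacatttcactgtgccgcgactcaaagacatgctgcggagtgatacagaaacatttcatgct
The region of rpl-20 holds pieces of element 1 farther apart and on opposite strands. That of rpl-43 holds the overlapping words ACCGTA and ACGGTA (the second read on the other strand), and that of rps-12 none of the 5.

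A set list of short sequences known from promoters was searched for on either strand within 50 bp of the summit. CTGCGTCT was in 1 of 43 regions (2.33%, interval 0.0589 to 12.3%), against 11.8% of the 903 others and 3.54% of all promoters. CTCTCT was in 3 (6.98%, interval 1.46 to 19.1%), against 22.4% of the others and 17.5% of all promoters, and GTCTCT, which can overlap it, in 4 (9.30%, interval 2.59 to 22.1%), against 21.2% and 14.4%. The others' share lay above the interval for CTCTCT and inside it for CTGCGTCT and GTCTCT. Within 100 bp it lay above the interval for each, at 34.1% for CTCTCT (members 6.98%, up to 19.1%), 16.3% for CTGCGTCT (members 2.33%, up to 12.3%) and 30.6% for GTCTCT (members 13.95%, up to 27.9%).

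The remaining shares were close to those of the other regions or rested on few regions. CACGTG, the E-box, was in 0 of 43, which the interval allows to be up to 8.22%, against 4.54% of the others. TATAAA was in 2.33%, against 2.99%, GATAA in 11.6%, against 13.1%, CCAAT in 20.9%, against 16.6%, and TTTCAG, a 3′ splice site sequence, in 9.30%, against 4.54%. CGCG was in 48.8% (interval 33.3 to 64.5%), against 39.3%, and in 13.95% of the windows 500 bp away. TTTTTT was in 13.95% (interval 5.30 to 27.9%), against 25.7%, but within 100 bp of the summit it was in 74.4%, against 60.1%.

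**Figure D4:**
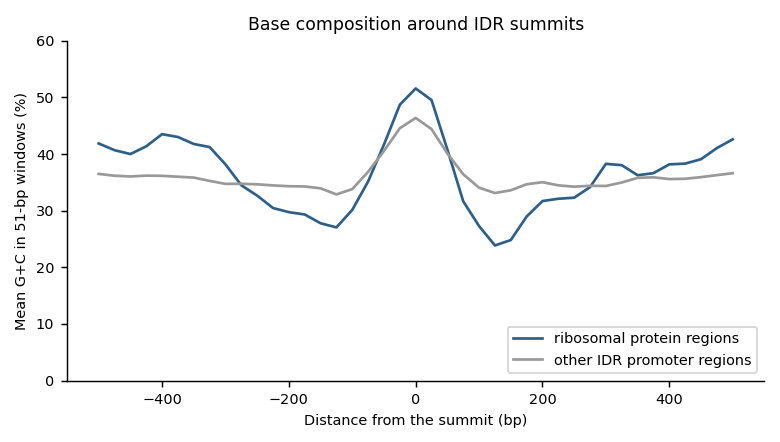
Mean G+C percentage in 51-bp windows at steps of 25 bp from IDR summits, for the 43 ribosomal protein regions and the 903 other IDR promoter regions, on the genome's plus strand. The ribosomal curve is at 51.6% at the summit, 30.1% at 100 bp before it and 27.3% at 100 bp after it, and the other curve at 46.4%, 33.8% and 34.0%.

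Base composition changed sharply around the summit. Within 50 bp of the summit the 43 regions had a median G+C of 49.5% (quartiles 48.0 and 51.5%), against 44.6% (quartiles 40.6 and 48.5%) in the 903 others and 41.6% in the windows 500 bp away. In the plot of G+C around the summit the members' mean was 51.6% at the summit, against 46.4% for the other regions, and 30.1% and 27.3% at 100 bp to either side, against 33.8% and 34.0%. The members' regions thus had a G+C-rich centre with A+T-rich sides, more so than the others. CG dinucleotides numbered a median of 8 within 50 bp, against 6 in the others.

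The share of members with an IDR region differed between chromosomes. Chromosome III had the highest share, with an IDR region at 14 of 18 members and a median pooled signal of 47.9, and chromosome V the lowest of the autosomes, with 3 of 8 and 18.3. Of all genes on these, 9.32% on chromosome III and 3.58% on chromosome V had one. The others had 6 of 10 on chromosome II (all genes 6.61%), 9 of 18 on chromosome IV (all genes 5.79%), 13 of 25 on chromosome I (all genes 8.03%) and 1 of 2 on the X (all genes 6.30%). The order of the chromosomes was not the same for members and for all genes, chromosome II standing above chromosome I for members and below it for all genes.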

How the data were processed

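ChIP-seq of eGFP-tagged PHA-4 was deposited for 2 biological replicates of 1 group. Per the manifests deposited with the lists, each replicate's regions and the pooled regions were called against a control and keep background regions, and the IDR list derives from them. Which caller and IDR threshold were used is not given in the sources used here. Signal values are those the authors deposited, and the summit is the authors' deposited offset from the region's start. Coordinates are ce11, whose sequence is that of WBcel235. Library fragments were 150 to 350 bp, per the labels.

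Genes came from Ensembl release 115. A region was tied to every gene whose window held its summit, so 1 region can count for several genes. Computations were run in Python 3.11.15 with SciPy 1.17.1, pandas 2.3.3, NumPy 2.4.6 and, for plots, matplotlib 3.10.9. Window assignment and the word search were tested on simulated data. Members, lists and motifs were chosen with earlier results of these data known, and elements 1 and 2 and their alternatives after seeing these regions. Genes named are the strongest 8 rpl, 8 rps and all rla, the 5 of the IDR list with the widest replicate ratios, the 3 farthest on either side in position, those without a pooled region, 5 on either side of the weakest IDR signal, paralogues and genes sharing their regions. Sequences of only some regions are shown. The alternatives were the strength of the list, each replicate alone, the window, the way of tying regions to genes and the width around the summit. Lists on build ce10 were not used here.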

Additional observations from a re-analysis of the deposited data

How the results depend on the processing

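Of 127 values recomputed under alternatives for 22 results, 101 stayed within 1.5 times for counts, within the exact interval for shares, or within 1 SD between the replicates for medians and ratios, and 26 moved further. Giving each region to the gene with the nearest 5′ end alone left 28 members with an IDR region (17 rpl and 11 rps). The gap between rpl and rps was then 0.69 percentage points. In 18 members with a shared region the 5′ end of another gene, in most cases not a member, was nearer to the summit. The share of all protein-coding genes under this rule is not given, so the 28 cannot be set against the 6.24% above. The log2 ratio of shared over own regions stayed positive, at 0.66 in the strongest 742 regions of the IDR list, 0.23 in the strongest 3000 pooled regions, 0.34 in narrower windows (500 and 100 bp), 0.15 in wider windows (2000 and 500 bp), 0.29 with any overlap, 0.35 with the outermost 5′ end and 0.31 to 0.32 with 1 replicate left out. The members' median signal was 29.7 with absent regions as 0, 32.8 in narrower windows, 30.7 in wider windows, 31.6 with the outermost 5′ end and 15.6 to 15.7 in the replicates' own lists, whose signals are lower throughout. The log2 ratio of members over all genes was 1.75 pooled and 1.30 to 1.44 with 1 replicate left out, and could not be computed with absent regions as 0, since the median of all genes is then 0. The ratio of rpl over rps was 0.09 pooled and 0.15 to 0.30 with 1 replicate left out. The median distance was 277.5 to 295.5 bp with 1 replicate left out. Within 100 bp of the summit TTTTTT was in 74.4%, GATAA in 25.6% and TTTCAG in 27.9% of the longer windows, and TATAAA was in 0 to 2.56% with 1 replicate left out. Element 1 stayed at 20.9 to 28.6% and element 2 at 16.3 to 23.1% under alternatives chosen after seeing the data. No paired analysis was possible because the series has 1 group and no contrast. Library depth is unknown, so a gene without a region was not called at this depth, and absence of binding is not shown.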
